A study of Mus musculus with 4 samples.

Results

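PGC-1alpha is a transcriptional coactivator that raises mitochondrial and oxidative metabolism in muscle. It does not bind DNA by itself and reaches chromatin through partner transcription factors such as the estrogen-related receptors, and the study title names AP-1, the dimer of Fos and Jun proteins, as another partner. Regulatory DNA often holds several separate elements within a short distance, such as a promoter and nearby enhancers, and a coactivator can be found at more than 1 of them. The spacing of its peaks is therefore a basic property of a binding map. Described here are the places where peaks of Flag-tagged PGC-1alpha lay in small groups of 2 to 4.

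The data came from C2C12 myotubes, the fused muscle cells that form when the mouse C2C12 myoblast line is kept in low serum, here 2% horse serum for 72 h. All 4 samples were myotubes cultured with an adenovirus that expresses Flag-tagged PGC-1alpha: 2 were precipitated with an anti-Flag antibody (ChIP-seq), and 2 were whole cell extracts, which served as the background. The cells therefore carried an introduced, tagged protein driven by a virus, the line is a single established one, and untagged cells precipitated with the same antibody are not among the samples, so a peak is a candidate recruitment site only. The authors deposited 1 list of 7512 peaks for the whole series, each 200 bp wide, with positions on mm9 but no height, score or value for a replicate. The sequencing depth is unknown, no peak can be compared between the 2 precipitations, and intervals given below cover counting error only.

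Members were chosen by the peak positions alone. Chromosome Y, with 27 peaks, was left out. On each other chromosome, a peak was joined to the next one when the gap, measured from the end of one peak to the start of the next, was at most 10 kb. All peaks in groups of exactly 2, 3 or 4 are members: 2618 peaks in 1087 groups, out of the 7485 peaks outside chromosome Y and the 7512 in all. They made up 35.0% of the peaks outside chromosome Y. The other peaks were 4218 single peaks and 649 peaks in 98 groups of 5 or more. Because the spacing of the peaks chose the members, every value of spacing below is a description, with no test. The genes at these positions and the DNA sequence under the peaks were not analysed here.

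Pairs were the main form of small group. There were 739 pairs, 68.0% of the small groups and 56.5% of their peaks. Groups of 3 numbered 252 and held 756 peaks, and groups of 4 numbered 96 and held 384 peaks. Each larger size was thus less frequent than the one before it.

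Most gaps lay well inside the limit of 10 kb, but their median moved with that limit. The 1531 gaps inside small groups had a median of 1.80 kb (95% interval 1.65 to 2.00 kb), with quartiles at 775 bp and 4.25 kb. With a limit of 5 kb the median gap was 1.30 kb, and with 20 kb it was 2.93 kb. By length, 229 gaps (15.0%, 95% exact binomial interval 13.2 to 16.8%) were under 500 bp, 573 (37.4%, 35.0 to 39.9%) measured 500 bp to 2 kb, and 729 (47.6%, 45.1 to 50.2%) measured 2 to 10 kb. The third band is by far the widest, so its large share does not mark a preferred distance. Per 100 bp of gap length, 45.8 gaps fell in the first band, 38.2 in the second and 9.11 in the third. Gaps were thus densest below 2 kb.

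The density of gaps fell at both ends of the short range. Only 4 gaps were shorter than 100 bp, and each of them measured 75 bp, the narrowest gap in any small group. A further 28 measured 100 to 200 bp. From 200 bp upward the numbers per 100 bp were 62, 58 and 77, the last being the highest in any step of 100 bp below 1 kb, and between 900 bp and 1 kb the number was 40. The most frequent single values were 250 bp and 600 bp, with 22 gaps each, but 425 and 450 bp followed with 21 each, and no single length stood clear of the others. Since starts are recorded in steps of 25 bp, gaps cannot be read more finely than that. The peak caller is not given, and its part in the low number of the shortest gaps was not tested.

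Beyond 1 kb the number of gaps declined with distance and then levelled. There were 493 gaps under 1 kb, 309 from 1 to 2 kb, 182 from 2 to 3 kb and 97 from 4 to 5 kb. The last 3 steps of 1 kb, from 7 kb to the limit at 10 kb, held 49, 57 and 49 gaps. The level was similar just past the limit. Over the whole list outside chromosome Y, 56 gaps lay above 9 kb and within 10 kb, and 53 lay above 10 kb and within 11 kb. The widest gap that kept a small group together was 9.975 kb, and the narrowest that separated a small group from its neighbour was 10.05 kb. The limit of 10 kb thus does not fall at a break in the spacing, and pairs close to it are grouped by convention.

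**Figure D1:**
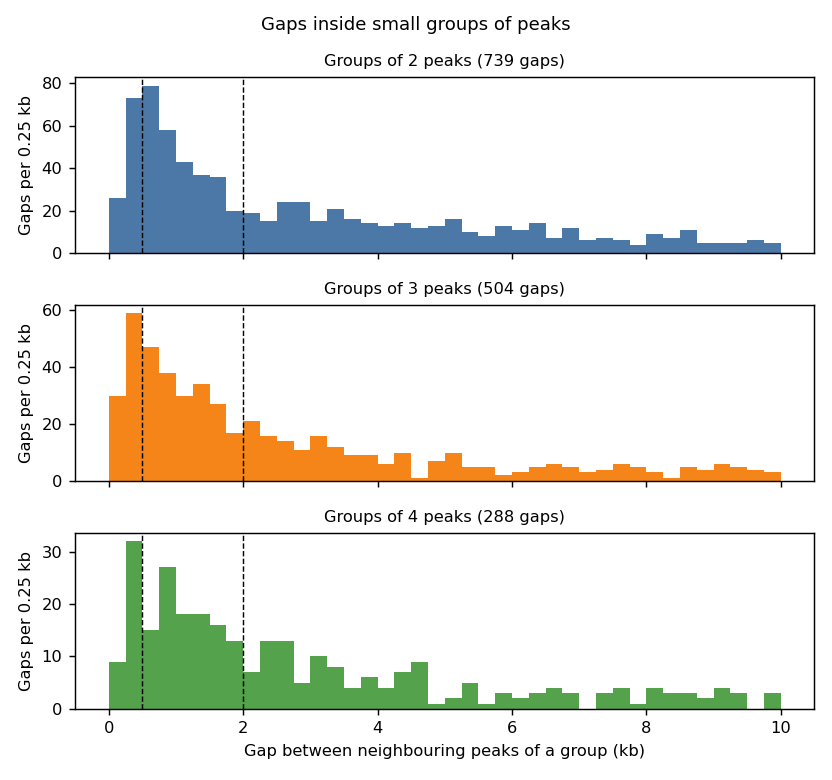
Number of gaps (y axis, per 0.25 kb) by gap length in kb (x axis) inside groups of 2, 3 and 4 peaks. The dashed lines mark 500 bp and 2 kb. In all 3 panels the gaps pile up below 2 kb and thin out toward 10 kb.

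Gap lengths had overlapping counting intervals in groups of 2, 3 and 4. The median gap was 1.93 kb in pairs (95% interval 1.65 to 2.30 kb), 1.61 kb in groups of 3 (1.40 to 1.88 kb) and 1.94 kb in groups of 4 (1.60 to 2.30 kb), so the 3 intervals overlapped. Gaps under 500 bp made up 13.4% in pairs (99 of 739), 17.7% in groups of 3 (89 of 504) and 14.2% in groups of 4 (41 of 288). Gaps of 500 bp to 2 kb made up 36.9%, 38.3% and 37.2%, and gaps of 2 to 10 kb made up 49.7%, 44.0% and 48.6%. The intervals of the 3 sizes overlapped in every band. Overlap does not show that the sizes are equal, and the differences were not tested. No order by size was seen in any band.

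In groups of 5 or more the middle band held more of the gaps. There, 45.4% of 551 gaps measured 500 bp to 2 kb (95% exact binomial interval 41.2 to 49.6%), against 37.4% in the small groups (35.0 to 39.9%), and the median gap was 1.48 kb. Gaps under 500 bp made up 14.3%, near the 15.0% of small groups. The difference was not tested, because group size and gaps come from the same positions.

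**Figure D2:**
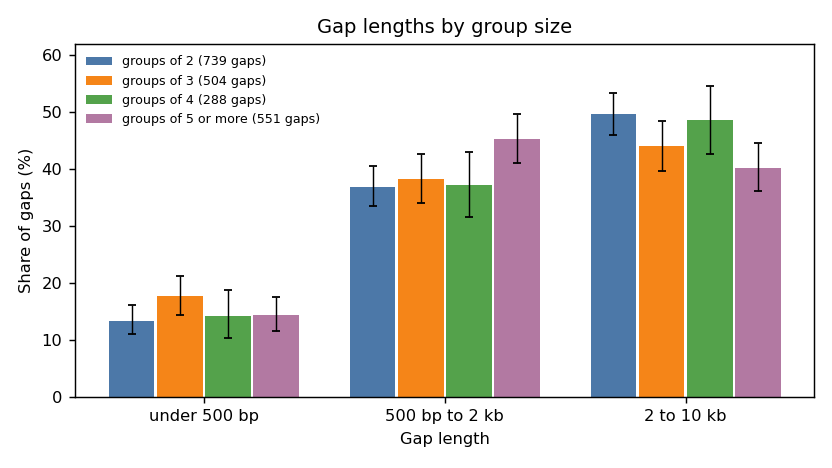
Share of gaps (y axis, in percent) in each of 3 length bands (x axis), by number of peaks in the group. Bars start at 0 and the error bars are 95% exact binomial intervals. Groups of 2, 3 and 4 have overlapping intervals in each band, and groups of 5 or more have 45.4% of their gaps in the middle band.

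The length of a group, from the start of its first peak to the end of its last, grew with the number of peaks. Its median was 2.33 kb for pairs, 4.61 kb for groups of 3 and 8.34 kb for groups of 4, and the longest groups measured 10.35, 20.35 and 23.875 kb. Under 1 kb in length were 123 groups, all of them pairs (16.6% of pairs). Over 10 kb were 9 pairs, 44 groups of 3 (17.5%) and 40 groups of 4 (41.7%). The rule shapes this order, since no gap can exceed 10 kb and each added peak adds a gap. Together the small groups spanned 4.83 Mb. Peaks covered a median of 17.2% of the length of a pair, 13.0% of a group of 3 and 9.60% of a group of 4.

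Groups of 3 often combined gaps of different bands, in 155 of 252 groups (61.5%). The shares of the bands among all gaps already make such forms frequent, and anything beyond that was not tested. The most frequent form had 1 gap of 500 bp to 2 kb and 1 gap of 2 to 10 kb, in 78 groups (31.0%). Next came 55 groups (21.8%) with both gaps of 2 to 10 kb, 43 (17.1%) with 1 gap under 500 bp and 1 of 500 bp to 2 kb, 36 (14.3%) with both gaps in the middle band, and 34 (13.5%) with 1 gap under 500 bp and 1 of 2 to 10 kb. Both gaps were under 500 bp in 6 groups. Seen as pairs with an added peak, 112 groups of 3 had a gap under 2 kb on one side and a gap of at least 2 kb on the other, whereas in 85 all peaks followed at under 2 kb.

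The wider gap of a group of 3 was a median of 2.79 times the narrower (quartiles 1.59 and 5.73 times). It was less than 2 times the narrower in 87 groups (34.5%) and at least 5 times in 73 (29.0%), and the most uneven group reached 58.5 times. The order along the chromosome made little difference: the median was 1.73 kb for the first gap and 1.49 kb for the second. The gaps of a group went together weakly, with a Pearson correlation of 0.14 on the log10 scale and a Spearman correlation of 0.14 over 252 groups. These are descriptions only, since both gaps share a peak and the same limit of 10 kb.

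**Figure D3:**
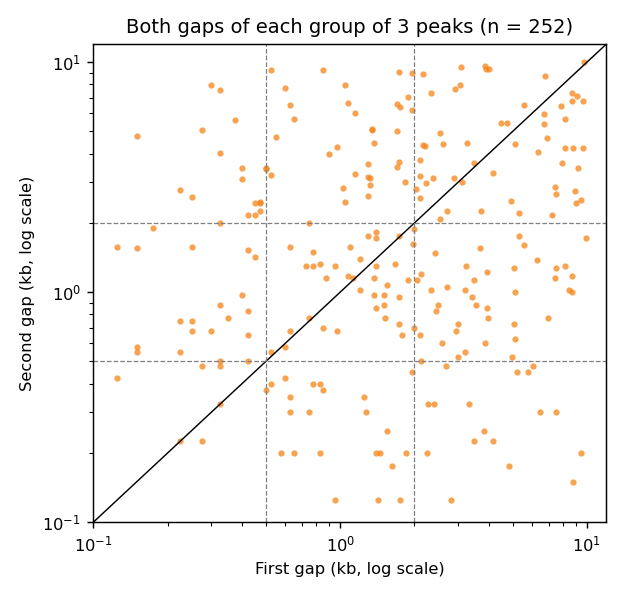
First against second gap of each of the 252 groups of 3 peaks, in kb on log axes. The solid line marks equal gaps and the dashed lines mark 500 bp and 2 kb. Points spread over most of the plane, and few lie on the line of equal gaps.

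Groups of 4 mixed short and long gaps still more often, as a larger number of gaps allows. In 75 of 96 (78.1%) the gaps fell in more than 1 band. The most frequent form, in 22 groups, had 1 gap of 500 bp to 2 kb and 2 gaps of 2 to 10 kb. In 18 groups (18.8%) all gaps were under 2 kb, in 16 (16.7%) none was, and the other 62 had some of each. No group of 4 had all gaps under 500 bp. The widest gap was a median of 4.54 times the narrowest. It was the first gap in 29 groups, the middle gap in 35 and the last in 32, so each of the 3 places held it about equally often. The median gap was 1562.5 bp at the first place, 2037.5 bp at the middle and 2287.5 bp at the last, a difference that was not tested.

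Even spacing, with gaps of a group within 25 bp of each other, was found in 7 of the 348 groups of 3 or 4, all of them groups of 3. On chromosome 8 from 73154956 to 73156005, both gaps measured 225 bp, and on chromosome 12 from 15713570 to 15714819 both measured 325 bp. The group on chromosome 17 from 46058874 to 46060548 had gaps of 525 and 550 bp, and that on chromosome 2 from 25326604 to 25328378 had gaps of 600 and 575 bp. A further group on chromosome 2, from 134738454 to 134740578, had gaps of 750 and 775 bp. Wider steps were found on chromosome 6 from 66963599 to 66966473, at 1125 and 1150 bp, and on chromosome 8 from 36767031 to 36771105, at 1725 and 1750 bp. The 7 groups shared no common step, which ran from 225 to 1750 bp.

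The tightest pairs were little longer than their peaks. Whether peaks this close are separate sites cannot be told from a list of positions. Pairs with a gap of 75 bp, 475 bp long in all, numbered 4, among them the pairs on chromosome 1 from 59029926 to 59030400, on chromosome 4 from 115749413 to 115749887 and on chromosome 15 from 78755585 to 78756059. Their surroundings differed: the nearest other peak lay 260.4 kb away from the first, 220.9 kb from the second and 51.1 kb from the third. The shortest group of 3 was the evenly spaced one on chromosome 8 from 73154956, at 1.05 kb. Chromosome 7 had the next, from 118748748 to 118749847 (1.10 kb, gaps of 275 and 225 bp) and from 30253948 to 30255097 (1.15 kb, gaps of 125 and 425 bp).

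The shortest group of 4 lay beside the shortest group of 3. It ran on chromosome 8 from 73170781 to 73172980, 2.20 kb with gaps of 325, 625 and 450 bp, and the gap between the 2 groups was 14.8 kb. At a joining distance of 20 kb they would count as a single group. The next shortest groups of 4 were on chromosome 8 from 25314481 to 25316805 (2.33 kb, gaps of 325, 400 and 800 bp) and on chromosome 4 from 45119363 to 45122037 (2.68 kb, gaps of 900, 250 and 725 bp). The former stood far from any other peak, the nearest being 1.06 Mb away, which made it the only group of 4 without a peak within 1 Mb.

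The longest small groups were loose rows of peaks, with gaps from 4075 to 9975 bp. The longest pairs lay on chromosome 8 from 11173556 to 11183905, with a gap of 9950 bp, and on chromosome 6 from 67042574 to 67052873, with a gap of 9900 bp. The longest groups of 3 were on chromosome 8 from 129433331 to 129453680 (gaps of 9775 and 9975 bp) and on chromosome 15 from 78151460 to 78168459 (gaps of 9600 and 6800 bp). Chromosome 10 had the longest group of 4, from 80397153 to 80421027, with gaps of 6375, 8025 and 8675 bp. The next was on chromosome 11 from 80671696 to 80691145, with gaps of 5250, 9325 and 4075 bp. None of these 6 groups held a gap under 2 kb. The choice of the longest groups largely fixes this, since no gap can exceed 10 kb.

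About as many small groups had another peak within 50 kb as had none. The distance from a small group to the nearest other group or single peak, which the rule sets above 10 kb, had a median of 50.6 kb (95% interval 44.1 to 53.8 kb) and quartiles of 22.9 and 124.9 kb. The interval treats groups as independent, although neighbouring groups can share the same distance, so it can be too narrow. Of the 1087 groups, 229 (21.1%) had another peak within 20 kb, 541 (49.8%) within 50 kb and 760 (69.9%) within 100 kb. The remaining 327 (30.1%) stood alone for more than 100 kb on both sides, and 12 for more than 1 Mb. On the farther side, the median distance was 273.3 kb. To the next group or single peak in the direction of rising coordinates, the median was 103.5 kb (quartiles 36.1 and 319.5 kb) over 1082 groups, and 5 groups were the last on their chromosome.

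The median distance was shorter for groups with more peaks, but the intervals overlapped among the small groups. The median distance to the nearest neighbour was 53.1 kb for pairs (95% interval 48.2 to 61.0 kb), 42.3 kb for groups of 3 (36.5 to 53.3 kb) and 34.4 kb for groups of 4 (26.5 to 52.5 kb). These differences were not tested. Single peaks lay farther from their neighbours, at a median of 83.8 kb (79.5 to 89.9 kb), and groups of 5 or more lay at 31.9 kb (23.6 to 41.8 kb). In the forward direction the order of the small groups was the same, at 116.8 kb for pairs, 97.5 kb for groups of 3 and 64.4 kb for groups of 4. Within 50 kb of another peak were 47.4% of pairs, 52.8% of groups of 3 and 60.4% of groups of 4, against 36.1% of single peaks. The part of local peak density in these values was not tested.

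**Figure D4:**
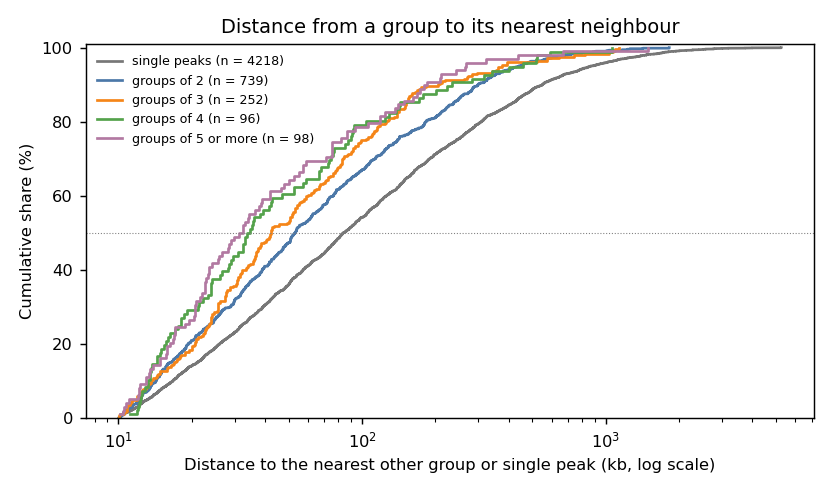
Cumulative share (y axis, in percent) of single peaks and of groups by the distance in kb to the nearest other group or single peak (x axis, log scale, above 10 kb by the rule). The curve of single peaks lies to the right, with a median of 83.8 kb, and those of groups of 2, 3 and 4 cross the dotted line of 50% at 53.1, 42.3 and 34.4 kb.

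The median distance to other peaks was longest for the tightest pairs, but with overlapping intervals. Pairs with a gap under 500 bp had a median distance of 68.0 kb to the nearest neighbour (95% interval 44.9 to 76.9 kb, 99 pairs). For gaps of 500 bp to 2 kb it was 51.9 kb (44.1 to 62.8 kb, 273 pairs), and for 2 to 10 kb it was 51.5 kb (44.3 to 61.9 kb, 367 pairs). The 3 intervals overlapped, and the difference was not tested.

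The nearest neighbour was most often a single peak. This held for 743 small groups (68.4%), whereas another small group was nearest for 316 (29.1%) and a group of 5 or more for 28 (2.58%). Single peaks made up 78.1% of all groups and single peaks together, and small groups 20.1%. Among groups of 4, another small group was nearest for 36 of 96 (37.5%), compared with 28.0% of pairs and 29.0% of groups of 3. On both sides together, 585 small groups (53.8%) lay between single peaks, 384 (35.3%) between a single peak and a small group, and 69 (6.35%) between small groups. A group of 5 or more was the next on at least one side for 40 groups, in 2 of them on both sides.

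The 3 most isolated groups were pairs, the most common size at 68.0% of small groups. Of the 12 small groups more than 1 Mb from another peak, 7 were pairs, 4 were groups of 3 and 1 was a group of 4. The pair on chromosome 2 from 98397304 to 98406278 lay 1.82 Mb from the nearest other peak, with a gap of 8575 bp between its own peaks. On chromosome 6 the pair from 129477524 to 129482798 lay 1.42 Mb from a group of 5 peaks, and on chromosome 14 the pair from 35432098 to 35434147 lay 1.26 Mb from a single peak. At the other end, the groups of 3 on chromosome 4 from 154547713 to 154552162 and on chromosome 17 from 46058874 to 46060548 each had a single peak 10.05 kb away. The pair on chromosome 10 from 82556428 to 82557002 had one at 10.125 kb. A slightly larger limit would have made these groups of 4, 4 and 3.

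Small groups were found on all 20 chromosomes examined. The 19 autosomes held 1083 of them, 0.456 per Mb of chromosome between the outermost peaks. Chromosome X held 4, which is 0.0253 per Mb: 3 pairs and 1 group of 3. Peaks in all were sparse there, at 0.608 per Mb, against 2.26 (chromosome 18) to 4.45 (chromosome 19) on the autosomes. The part of this density in the values of chromosome X was not tested. The share of a chromosome's peaks that were members had a mean of 34.9% ± 4.37 (SD over 19 autosomes). It was highest on chromosome 11, at 42.8% (198 of 463 peaks, 95% exact binomial interval 38.2 to 47.4%), followed by chromosome 17 at 41.0% (120 of 293, 35.3 to 46.8%) and chromosome 1 at 39.4% (217 of 551, 35.3 to 43.6%). It was lowest among autosomes on chromosome 13, at 25.3% (75 of 297, 20.4 to 30.6%), and chromosome 14, at 27.5% (87 of 316, 22.7 to 32.8%). On chromosome X it was 9.38% (9 of 96, 4.38 to 17.1%). The intervals treat peaks as independent, which members of a group are not, so they are too narrow.

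Autosomes with more peaks per Mb tended to have a larger share of them in small groups. The Pearson correlation was 0.54 and the Spearman correlation 0.54 over 19 autosomes, given as a description because both measures count the same peaks. The share of peaks in groups of 5 or more went only weakly against the share in small groups, with a Pearson correlation of -0.23 and a Spearman correlation of -0.30 over the same 19 autosomes. Chromosome 14 was low in small groups and held 15.2% of its peaks in groups of 5 or more, chromosome 3 was low in both (30.4% and 4.46%), and chromosome 19 was high in both (38.0% and 18.6%). The median gap inside small groups ranged over the autosomes from 1.39 kb on chromosome 9 to 2.66 kb on chromosome 1. Gaps under 500 bp ranged from 9.26% on chromosome 16 (5 of 54) to 25.6% on chromosome 13 (11 of 43), and on chromosome 8 they were 21 of 84. Chromosome 13 thus had the lowest share of peaks in small groups among the autosomes and the highest share of short gaps.

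**Figure D5:**
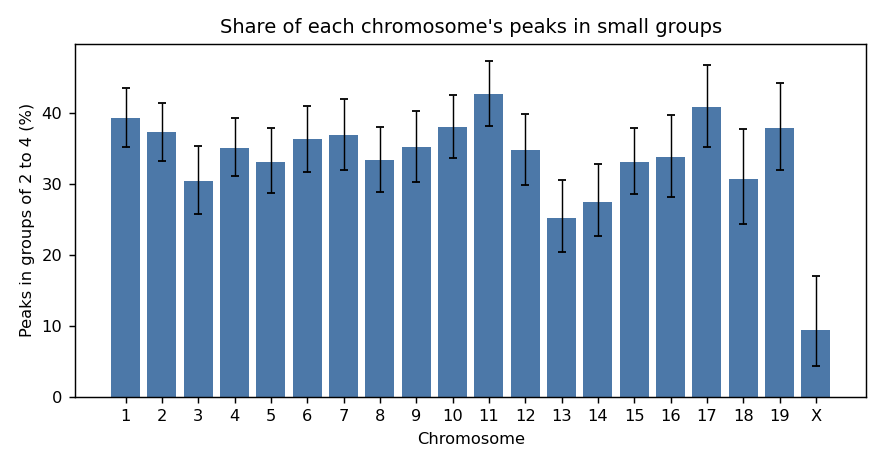
Share of the peaks of each chromosome (y axis, in percent) that lay in groups of 2 to 4, by chromosome (x axis). Bars start at 0 and error bars are 95% exact binomial intervals that treat peaks as independent. Autosomes lie between 25.3% and 42.8%, and chromosome X lies at 9.38%.

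Small groups often had others within the same megabase. Counted in windows of 1 Mb from position 0, they occupied 681 windows, and 664 of the groups (61.1%) shared their window with at least 1 other. The matching share was not computed for single peaks or for all peaks, so this value does not set small groups apart. The fullest windows were chosen after their values were seen. Chromosome 10 from 80 to 81 Mb led with 8 small groups: 4 pairs, 2 groups of 3 and 2 groups of 4. They held 22 of the 30 peaks of that window, the other 8 being single. Their gaps ran from 300 bp, in the pair from 80579953 to 80580652, to 8.68 kb, in the longest group of 4 described above, with a median of 1.89 kb, close to the 1.80 kb of all small groups. From one small group to the next the distance was 33.2 to 175.5 kb, with a median of 84.2 kb. The window thus held many separate small groups but no group of 5 or more.

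Another 2 windows held 6 small groups each. On chromosome 12 from 16 to 17 Mb these were 5 pairs and 1 group of 4, with 14 of the 21 peaks in the window, and none of their 8 gaps was under 500 bp. The group of 4 there, from 16267870 to 16278019, had gaps of 7500, 825 and 1025 bp. On chromosome 15 from 85 to 86 Mb there were 5 pairs and 1 group of 3, with 13 of 16 peaks, and neighbouring small groups were 27.3 to 244.2 kb apart. Neither window contained a group of 5 or more.

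Membership depended on the joining distance. With 5 kb in place of 10 kb, 802 of the 1087 groups (73.8%) kept exactly their peaks and 285 (26.2%) came apart. Groups of 4 came apart most, with 55 of 96 (57.3%) unchanged, compared with 174 of 252 groups of 3 (69.0%) and 573 of 739 pairs (77.5%). A group with more peaks has more gaps that can exceed the shorter distance, so this order does not mark larger groups as looser. With 20 kb, 858 groups (78.9%) kept exactly their peaks and 229 (21.1%) were joined to others. Of the 96 groups of 4, 28 (29.2%) were absorbed into groups of 5 or more at that distance. So were 24 groups of 3 (9.52%) and 42 pairs (5.68%). A further 22 groups of 3 (8.73%) and 113 pairs (15.3%) were joined into groups of 4 peaks or fewer. A group of 4 that is joined to any other peak always reaches 5 or more, so size largely sets the order of the absorbed shares.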

How the data were processed

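ChIP-seq of Flag-tagged PGC-1alpha was made from 2 immunoprecipitations and 2 whole cell extracts of C2C12 myotubes. Nothing in the labels says whether replicates came from separate cultures. Bowtie 0.12.7 and build mm9 are named in the submitters' processing notes. Which peak caller and threshold were used, and how replicates were handled, is not given in the sources used here. For the series, the authors deposited 1 list of chromosome, start and end, used as it stands. Positions are printed 1-based on mm9. Starts fall on a 25 bp grid. The reference tables at hand are on another build, so no gene or sequence was looked up.

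Peaks were joined across gaps of at most 10 kb with Python 3.11.15 and numpy 2.4.6. Shares carry exact binomial intervals and medians carry order-statistic intervals, both at 95% (scipy 1.17.1). Both treat gaps and groups as independent, which gaps of the same group and neighbouring groups need not be, so they can be too narrow. The joining step was tested on simulated data. No hypothesis test was run. Named for each size are the 3 shortest and 2 longest groups, then the 3 nearest to and 3 farthest from another peak, and the evenly spaced groups. Ties go to the lower chromosome number, and chromosome 18 is counted but not named. The groups, limits and naming rule were chosen with earlier results of these data known. The closing section gives the effect of 6 alternatives.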

Additional observations from a re-analysis of the deposited data

How the results depend on the processing

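The 10 summary values of the small groups were recomputed in 6 other ways of processing. Counts were compared by a factor of 1.5, and shares and medians by whether they left the 95% interval of the value reported. Keeping chromosome Y or leaving out chromosome X moved 0 of 10 values. Chromosome Y adds no small group and chromosome X holds only 4 of the 1087, so these settings could move little. The number of small groups (990 to 1179) and of their peaks (2341 to 2874) stayed within the factor of 1.5 in all 6. A joining distance of 5 kb changed gaps by construction: the shares under 500 bp, from 500 bp to 2 kb and from 2 kb upward were 18.4%, 47.7% and 33.9%, the median gap was 1.30 kb, the median group length 2.33 kb, the median distance to the nearest other group or peak 34.2 kb, and a single peak was nearest for 71.3%. With 20 kb the same shares of gaps were 11.4%, 30.3% and 58.3%, the median gap was 2.93 kb, the length 5.45 kb and the distance 71.5 kb, and 60.6% of groups of 3 or 4 had gaps in more than 1 band, against 66.1% at 10 kb. Counting peaks with gaps under 500 bp as 1 site leaves 0% of gaps in the first band by construction, 44.6% in the second and 55.4% in the third, with a median gap of 2.33 kb and a median length of 3.88 kb. Gaps in more than 1 band were then found in 50.2% of groups of 3 or 4, and a single peak was nearest for 71.9%. Measured between peak centres, each distance is 200 bp longer, so 6.17% were under 500 bp and 43.9% from 500 bp to 2 kb, and 57.8% of groups of 3 or 4 had more than 1 band. The share of the shortest band is thus the value that depends most on how a gap is measured.

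No paired analysis was possible because the authors deposited 1 list with no value for a replicate. Leaving out a replicate and choosing stronger peaks need values that the list does not hold. Depth limits which peaks are listed, by an unknown amount.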
